A study of Mus musculus with 703 samples.

Results

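The Mrpl and Mrps genes are named for the protein subunits of the mitochondrial ribosome, and they were taken from the count table as every gene symbol that begins with Mrpl or Mrps followed by a digit, without symbols marked as pseudogenes. This gave 77 genes of 19088 in the table, 48 with Mrpl symbols and 29 with Mrps symbols. The symbols stand for the large and the small subunit, and the place of each protein was not checked. Mrps36, now known to be a subunit of the 2-oxoglutarate dehydrogenase complex rather than of the ribosome, was kept, since the choice was by symbol. All 77 passed the filter on low counts in each comparison. The data were 703 RNA-seq libraries of polyadenylated RNA from gastrocnemius muscle, a calf muscle made mostly of fast fibres, each from 1 mouse of 20 CC-RIX strains. A CC-RIX strain is the F1 cross of a pair of Collaborative Cross inbred lines, which descend from 8 founder strains, so all mice of a strain share 1 outcrossed genotype. Of the 703 mice, 469 were untreated: 119 females and 115 males on 10% fat, and 117 females and 118 males on 44% fat. Both diets are labelled as plus fiber, and the labels' protocol calls the diets chow and high in fat and sugar, so that they may differ in more than fat. The other 234 received metformin at 5 mg/mL in the drinking water, with 57 females and 59 males on 10% fat and 59 females and 59 males on 44% fat. The diets began at 6 weeks of age and metformin at 7 months. Tissue was taken at 6 or 12 months, so that treated mice belong to the older cohort and untreated mice to either. The labels give no single animal's age, and a difference between treated and untreated mice and a difference of age cannot be told apart.

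Mitochondria keep their own ribosomes, which translate only the proteins that mitochondrial DNA encodes, all of them core subunits of the respiratory chain and ATP synthase. The ribosomal RNAs come from mitochondrial DNA, whereas every protein of the mitoribosome is encoded in the nucleus, made in the cytosol and imported. Some of these proteins descend from bacterial ribosomal proteins and others are found only in mitochondria. Skeletal muscle is rich in mitochondria, and inherited defects in several of these proteins cause disorders of oxidative phosphorylation that affect heart and muscle.

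Total counts ranged from 27.4M to 96.1M per library, with a median of 47.9M. The 8 markers of fast fibres, among them Myh4, Actn3 and Ckm, summed to between 85337 and 151921 CPM (counts scaled to a common library total) in untreated libraries, against 491 to 4261 CPM for the 8 slow fibre markers. In 15 libraries Xist, the transcript that silences an X chromosome in females, was at a level typical of mice of the sex not labelled, and 4 libraries were closest to another strain's profile, 19 in all and 15 of them untreated. In 104 libraries, 67 of them untreated, liver transcripts summed to over 10 times the median library. The sequencing identifiers in the labels fell into a lower range (544 libraries) and an upper range (159 libraries), and the range was a term of every model. The counts of members for strain, sex, diet and metformin were repeated without the first 19 and without the 104 libraries.

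Together the 77 genes took 0.167% of all counts. Mean levels over all libraries ran from 5.73 CPM for Mrps6 to 76.7 CPM for Mrpl42. Within some strains Mrpl23 was lower, with a mean of 1.24 CPM in 206 untreated libraries of 9 strains. Per kilobase of exon, the highest levels were those of Mrps21 (54.0 CPM per kb), Mrpl18 (34.0 CPM per kb) and Mrpl53 (30.4 CPM per kb), and the lowest those of Mrpl23 (1.21 CPM per kb), Mrps35 (1.56 CPM per kb) and Mrpl32 (2.23 CPM per kb). The exon length is that of all annotated exons of a gene merged. Exons of rarely used transcripts thus count in full, and the order depends on the annotation. Mrps21 and Mrpl18 are counterparts of bacterial ribosomal proteins, while Mrpl53 is specific to mitochondria. The genes lay on 17 chromosomes, and 34 of them overlap another annotated gene. For 20 members, at least 5% of the 50-base stretches of their transcripts also occur in another gene of the table, in 14 cases on the opposite strand only. The most extensive overlap was that of Mrpl53, which shares 82.0% of its stretches with Gm42688, so the level of Mrpl53 depends on how shared reads were divided. Mrps25 and Mrps34 followed, sharing 53.4% with Nr2c2 and 53.1% with Mapk8ip3, both on the opposite strand. Mrpl58, a release factor built into the large subunit, was not found under that symbol and is not analysed here.

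The comparison between strains asks how much of each gene's level goes with the strain. Untreated mice are of either age, and age could not be a term of the strain, sex and diet comparisons. How the ages were spread over these groups is not known from the labels. All 77 members differed between the 20 strains in untreated mice (edgeR quasi-likelihood F test, adjusted p under 0.05 over 16384 genes), where 95.4% of all genes tested did so. The largest adjusted p was 0.0235, for Mrpl30, and without the 104 libraries with liver transcripts 75 members were called, Mrpl30 (adjusted p = 0.112) and Mrpl52 (adjusted p = 0.103) not among them. Within the lower identifier range 76 members differed between strains, where 94.3% of all genes did, and within the upper range 37 (48.1%), where 55.1% did. The share of a gene's variance that lay between strains had a median of 17.3% over the members and 15.3% over all genes tested. It ranged from 2.68% for Mrpl52 to 90.5% for Mrpl23, and exceeded 50% in 9 members (11.7%), against 9.19% of all genes. The highest and the lowest strain mean of a member lay a median of 0.33 log2 units apart, against 0.62 over all genes tested. The latter include genes of far lower level than the members, and genes of like level were not compared. Highest and lowest strain means differed by over 1.5-fold in 16 of the 77 members, and the median ratio was 1.27. The share of all genes past that ratio was not computed, so the 16 are not a mark of the members. In metformin-treated mice, which are other animals, the strain means had a median correlation of 0.80 over the 20 strains with those of untreated mice, and 39 members exceeded 0.8. Over all 16384 genes tested the median was 0.74, and 6429 genes exceeded 0.8.

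**Figure D1:**
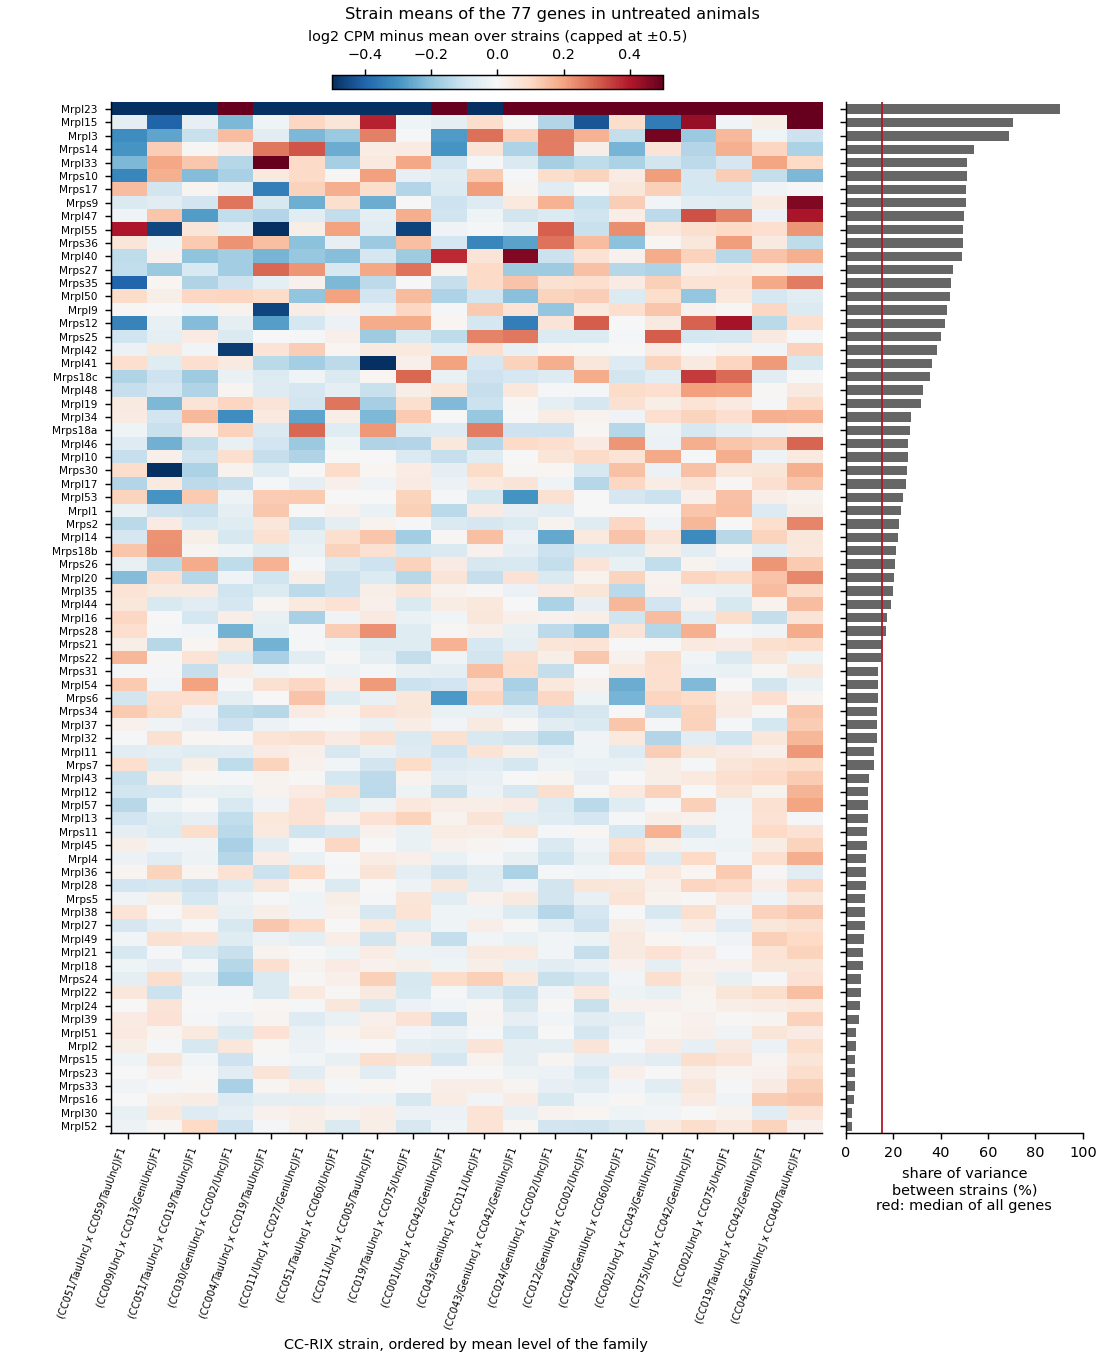
Strain means of the 77 genes in untreated mice. Each row is a gene and each column a CC-RIX strain, ordered from the lowest to the highest mean level of the family; colours show the adjusted log2 CPM minus the mean over the 20 strains, capped at 0.5 either way, and the bars give the percentage of variance between strains, with a red line at the median of all genes tested (15.3%). The genes with the largest share, from Mrpl23 (90.5%) to Mrps10 (51.1%), differ in which strains are high.

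After Mrpl23, described next, the members with the largest share between strains were Mrpl15, Mrpl3, Mrps14, Mrpl33 and Mrps10, all counterparts of bacterial ribosomal proteins. Mrpl15 (chr1:4773206-4785739, minus strand, GRCm38; 70.4% of variance between strains) ranged from 32.9 ± 2.73 CPM (SD, n = 24) in (CC012/GeniUncJ x CC002/UncJ)F1 to 65.3 ± 8.17 CPM (n = 24) in (CC042/GeniUncJ x CC040/TauUncJ)F1, a ratio of 1.98. Mrpl3 (chr9:105053239-105079888, plus strand; 68.9%), a gene in which mutations cause a mitochondrial cardiomyopathy, ranged from 25.6 ± 3.32 CPM (n = 10) in (CC009/UncJ x CC013/GeniUncJ)F1 to 45.3 ± 3.31 CPM (n = 24) in (CC002/UncJ x CC043/GeniUncJ)F1. These extremes lay far outside the spread within a strain. Mrps14 (53.9%) had strain means between 14.5 and 22.3 CPM, Mrpl33 (51.1%) between 23.9 and 39.4 CPM, and Mrps10 (51.1%) between 16.1 and 23.4 CPM. Mrpl33 was highest in (CC004/TauUncJ x CC019/TauUncJ)F1, 6.81 CPM above the next strain. For these 5 genes, the correlation of strain means between untreated and treated mice lay between 0.963 and 0.983. The least variable were Mrps16, Mrpl30 and Mrpl52, whose strain means differed by ratios of 1.19, 1.10 and 1.16. Of genes named for their roles, Mrps12, the counterpart of the bacterial protein at the decoding centre, had strain means from 6.74 to 11.5 CPM (41.8% of variance between strains). Mrps36 had means from 24.1 to 36.6 CPM (49.3%). Mrpl11, at the stalk base of the large subunit, and Mrpl12, the stalk protein that also binds the mitochondrial RNA polymerase, varied less, with 12.0% and 9.45%.

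Mrpl23 had the largest share between strains. It encodes a protein at the exit of the peptide tunnel of the large subunit, and the table places it at chr7:142532799-142540747 (plus strand, GRCm38). The 20 strains fell into groups by their parental lines, a split noticed after the values were seen. In the 11 strains with CC002/UncJ or CC042/GeniUncJ as a parent, called carriers here, the lowest, median and highest of 263 untreated libraries were 5.06, 9.46 and 28.4 CPM, with a mean of 9.64 ± 2.15 CPM (SD). In the 9 strains with neither parent they were 0.259, 1.20 and 3.24 CPM over 206 libraries, with a mean of 1.24 ± 0.497 CPM, a ratio of means of 7.79. The groups did not overlap in untreated or in treated mice: 0 of 395 carrier libraries lay at or below the highest of the 308 others. In treated mice the means were 9.48 ± 1.46 CPM (n = 132) and 1.17 ± 0.513 CPM (n = 102). Strains with CC002/UncJ and strains with CC042/GeniUncJ had like means, 9.59 ± 2.32 CPM (n = 120) and 9.69 ± 2.01 CPM (n = 143).

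The processed pseudogene Mrpl23-ps1 (chr2:74591330-74591909, minus strand, GENCODE M21), an intronless copy that the choice of members left out, showed the reverse order. It had 16.1 ± 2.96 CPM (n = 263) in untreated carriers and 23.4 ± 2.82 CPM (n = 206) in the other strains, and its strain means correlated with those of Mrpl23 at r = -0.978 over 20 strains, a description with no test. Counts of both genes added together came to 25.7 ± 4.46 CPM in carriers and 24.7 ± 2.89 CPM in the others, with strain means from 22.4 to 27.3 CPM. The share of variance between strains was 92.9% for Mrpl23 and 4.34% for the sum, both on log2(CPM + 1) values, an alternative chosen after seeing the data. In the reference genome, 540 of 580 bases of the copy align to the Mrpl23 transcript and 540 of these are identical, including all 438 coding bases, and 92.5% of the copy's 50-base stretches occur in Mrpl23. The opening 90 coding bases are given here, with the start codon in capitals, because both loci hold the same letters there. A 100-base read that lies within the 540 identical bases fits both loci. The sequence was read from the GENCODE M21 transcripts of GRCm38:
Mrpl23 and Mrpl23-ps1: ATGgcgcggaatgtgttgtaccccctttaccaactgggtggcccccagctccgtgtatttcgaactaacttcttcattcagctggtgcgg
Reads of Mrpl23 and reads of its copy thus cannot be told apart over the coding sequence in this reference, and the level of Mrpl23 by strain is uncertain: a difference in the amount of Mrpl23 transcript and a difference in how shared reads were divided cannot be told apart.

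**Figure D2:**
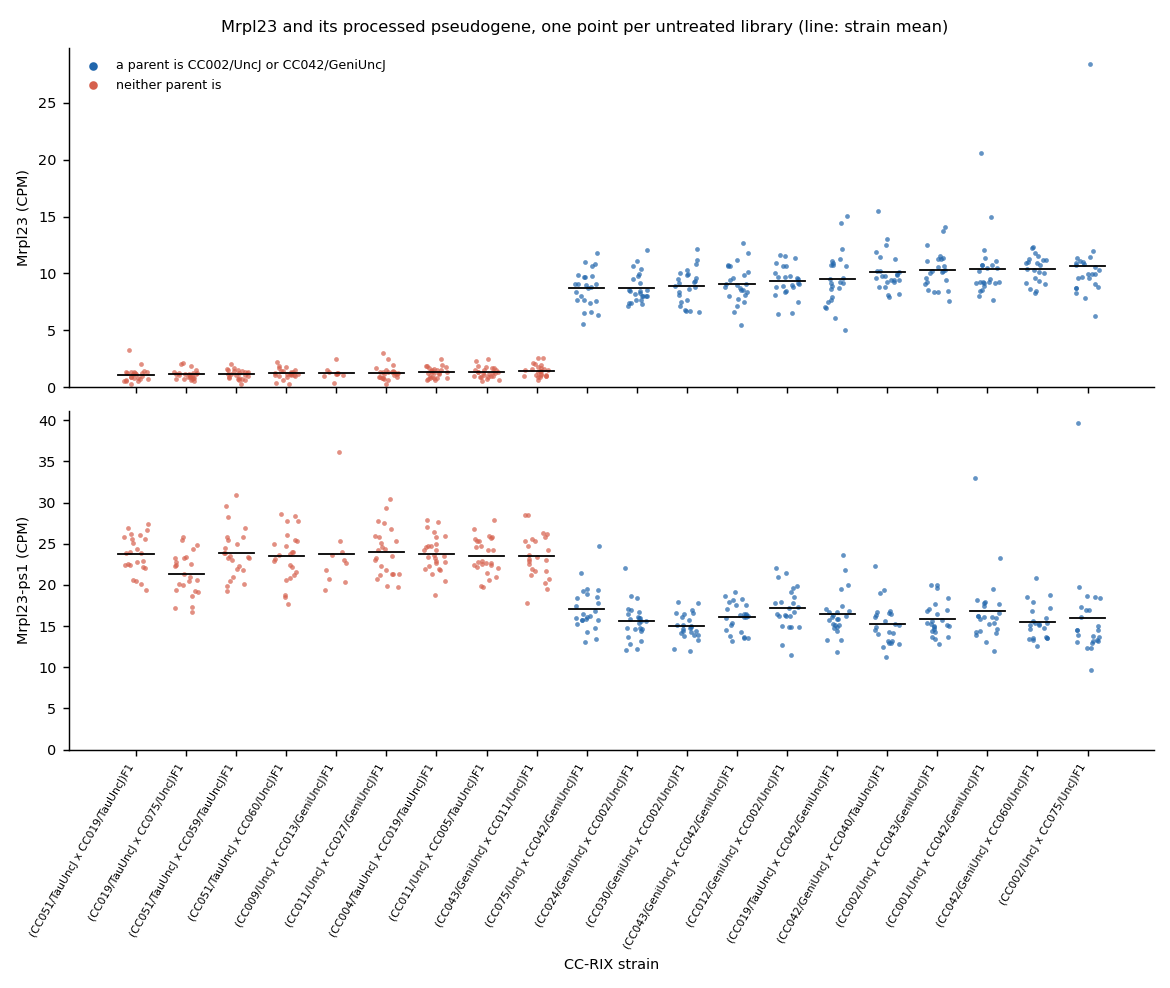
Levels of Mrpl23 (upper panel) and of its processed pseudogene Mrpl23-ps1 (lower panel) in CPM by CC-RIX strain, 1 point per untreated library, with a line at each strain mean. Strains with CC002/UncJ or CC042/GeniUncJ as a parent (blue, 11 strains) lie above all others (red, 9 strains) for Mrpl23 and lower on average for the copy; the group means are 9.64 and 1.24 CPM for Mrpl23 and 16.1 and 23.4 CPM for the copy.

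For 5 other members (6.49%), the strains of 1 parental line all lay above or all below every other strain, where 10.9% of all genes tested showed such a separation. Each line here was a parent of 3 strains, set against 17 others. Strains with CC043/GeniUncJ had Mrps25 means of 27.0 to 28.1 CPM against 20.2 to 23.9 CPM in the others, the widest gap of the 5 genes. Mrps25 shares 53.4% of its 50-base stretches with Nr2c2 on the opposite strand, so reads of both genes may not be separated. The same strains were higher for Mrps31 (18.3 to 19.2 against 15.8 to 18.1 CPM). Strains with CC011/UncJ were higher for Mrps18a (27.9 to 29.3 against 21.5 to 26.0 CPM) and strains with CC075/UncJ for Mrps18c (12.9 to 13.4 against 9.31 to 11.9 CPM). Strains with CC051/TauUncJ were lower for Mrps35 (10.4 to 12.3 against 12.4 to 16.3 CPM). The count depended on the libraries: 9 members (11.7%) were separated in treated mice, where 10.8% of all genes were, 8 (10.4%) in the lower identifier range, against 12.9%, and 7 (9.09%) without the 19 libraries whose labels were in doubt, against 11.0%. In treated mice the separation held for Mrps25, Mrps18c and Mrps35 and not for Mrps18a and Mrps31. Mrps18a, Mrps18b and Mrps18c are related proteins that occupy different places in the mitoribosome, and their strain patterns were unlike: the highest strain was (CC011/UncJ x CC027/GeniUncJ)F1 for Mrps18a, (CC009/UncJ x CC013/GeniUncJ)F1 for Mrps18b and (CC075/UncJ x CC042/GeniUncJ)F1 for Mrps18c.

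The mean level of the family (the mean log2 CPM of the 77 genes) varied less than most of its members. Adjusted strain means ran from 4.17 in (CC051/TauUncJ x CC059/TauUncJ)F1 to 4.33 in (CC042/GeniUncJ x CC040/TauUncJ)F1, where the SD between libraries of a strain was 0.0991 and 0.134. Across the 20 strains the family level correlated with that of the nuclear subunits of complex I at r = 0.622 and with that of the 13 protein-coding genes of mitochondrial DNA at r = -0.715. The latter are the transcripts that this ribosome translates. Their level was lowest, at 10.86 to 10.94 log2 CPM, in (CC042/GeniUncJ x CC060/UncJ)F1, (CC002/UncJ x CC043/GeniUncJ)F1, (CC002/UncJ x CC075/UncJ)F1 and (CC042/GeniUncJ x CC040/TauUncJ)F1. Every other strain had 11.41 to 11.86. In those named strains, each with CC002/UncJ or CC042/GeniUncJ as a parent, family levels were 4.24 to 4.33. In the others they were 4.17 to 4.28. The correlation without the named strains was not computed. The strain means share libraries and scaling, so these correlations are descriptions with no test. Treated and untreated strain means of the family, from different animals, had r = 0.691. Mrpl23, whose level by strain is uncertain, is 1 of the 77 genes. Its split between strains enters each family level and correlation given here, and these were not computed without it.

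Males had higher levels of most members than females. In untreated mice 60 of the 77 members passed the test (77.9%), all 60 higher in males, where 67.1% of all genes tested passed, 30.1% higher and 37.0% lower. The median difference of the members was 0.077 log2 units, against -0.018 over all genes tested. By symbol, 37 of 48 Mrpl genes and 23 of 29 Mrps genes were higher in males. The largest difference was that of Mrpl14, on the face of the large subunit where assembly factors bind: females ranged from 11.1 to 29.3 CPM (median 17.7, n = 236) and males from 13.5 to 40.8 CPM (median 19.6, n = 233). The ranges overlapped widely, and the log2 difference was 0.18 ± 0.019 (SE, adjusted p = 6.34e-18), higher in males in 20 of 20 strains. Mrpl20 (0.18 ± 0.018, adjusted p = 1.00e-18), Mrps15 (0.16 ± 0.017, adjusted p = 1.52e-19) and Mrpl45 (0.16 ± 0.014, adjusted p = 1.11e-27) followed, each higher in males in 19 or 20 strains. Mrpl45 helps to hold the ribosome at the inner membrane. Mrpl51, of which females ranged from 45.6 to 77.8 CPM (median 59.1) and males from 48.9 to 138.8 CPM (median 64.9), and Mrpl54, both specific to mitochondria, had differences of 0.15 ± 0.014 and 0.16 ± 0.024. Mrps21, the highest member per length, was at -0.028 ± 0.018 (adjusted p = 0.156), and Mrpl33 at 8.2e-05 ± 0.016 (adjusted p = 0.997). The median over members was higher in males in 19 of 20 strains, from a lowest value of -0.0067 in (CC030/GeniUncJ x CC002/UncJ)F1 to 0.17 in (CC019/TauUncJ x CC042/GeniUncJ)F1. By limma voom, by limma on the transformed values and without the libraries whose labels were in doubt, 1 member was called lower in males. Within the lower identifier range 60 members passed, where 65.8% of all genes did. Within the upper range 16 passed (20.8%), where 26.1% of all genes did, and the median difference of the members there was 0.088.

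Other genes of mitochondrial translation and respiration differed in direction by list. In males 34 of 37 nuclear complex I genes were higher, as were 13 of 13 protein-coding genes of mitochondrial DNA, 8 of 11 translation factors and 11 of 20 genes for mitochondrial aminoacyl-tRNA synthesis, with 3 of the last lower. Of 21 genes for mitoribosome assembly and rRNA modification 8 were higher and 4 lower, with a median of 0.0056, and of 7 genes that transcribe or copy mitochondrial DNA 2 were higher and 3 lower. Of 10 regulators of mitochondrial genes 5 were higher and 4 lower, from -0.32 to 0.24. Of 84 cytosolic ribosomal protein genes, whose ribosome works outside mitochondria, 14 were higher and 25 lower, with a median of -0.013. Fibre-type markers moved with sex too: 8 of 8 slow fibre markers were lower in males, their summed level having a median of 1372 CPM (491 to 2558) against 2125 CPM (1188 to 4261) in females, while 5 of 8 fast fibre markers were higher and 2 lower. Of adipocyte markers 6 of 7 were lower and 1 higher, of endothelial markers 2 of 4 were higher and 1 lower, of liver markers 1 of 7 was higher and of neural markers 1 of 3 was lower. The part of these shifts in the members' difference was not tested. In bulk tissue, fewer cells or fibres of a type and less RNA per cell cannot be told apart.

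**Figure D3:**
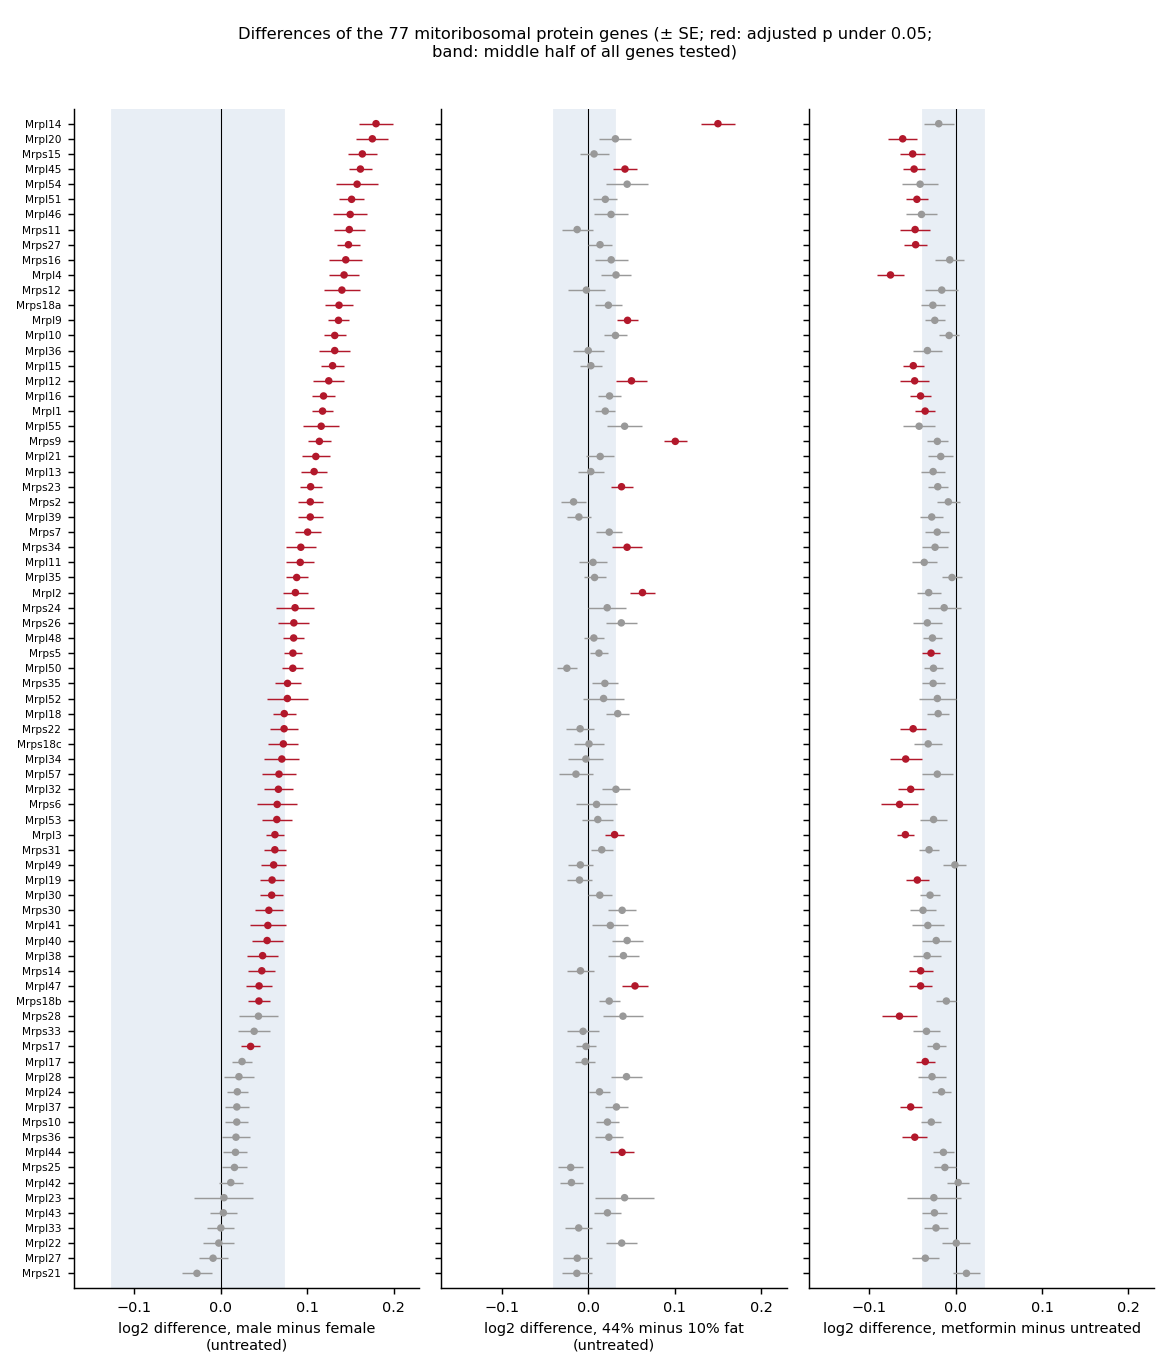
Log2 differences of the 77 genes with their standard errors for male minus female (left, 469 untreated libraries), 44% minus 10% fat (middle, the same libraries) and metformin minus untreated (right, 703 libraries), in the order of the sex difference. Red points passed an adjusted p of 0.05 (60, 11 and 24 genes) and the shaded band spans the middle 50% of all genes tested; 74 of 77 points lie right of 0 for sex and 74 left of it for metformin.

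The high-fat diet changed few members. In untreated mice 11 of 77 (14.3%) passed, all of them higher on 44% fat, where 20.3% of all genes tested passed, 10.1% in each direction. The median difference was 0.020 log2 units over the members and -0.0030 over all genes. Mrpl14 again led: on 10% fat it ranged from 11.1 to 29.3 CPM (median 17.6, n = 234) and on 44% fat from 11.7 to 40.8 CPM (median 19.7, n = 235). The ranges overlapped, and the log2 difference of 0.15 ± 0.019 (adjusted p = 8.05e-12) was positive in 20 of 20 strains. Mrps9 ranged from 11.9 to 29.9 CPM (median 18.04) on 10% fat and from 13.8 to 35.6 CPM (median 19.1) on 44% fat, a log2 difference of 0.10 ± 0.013 (adjusted p = 1.70e-11) that was positive in 19 strains. Mrpl2, next to the peptidyl transferase centre, rose by 0.063 ± 0.015 (adjusted p = 0.000352), and Mrpl47 (0.054), Mrpl12 (0.050) and Mrpl9 (0.046) by less. The other 5 were Mrpl45, Mrps23, Mrpl44, Mrps34 and Mrpl3, of which Mrpl44, Mrps34 and Mrpl3 are genes whose mutations cause mitochondrial disease, with differences between 0.030 and 0.045. Within the lower identifier range 8 members passed (10.4%), where 17.2% of all genes did. Within the upper range 0 passed (edgeR; 3 at an unadjusted p under 0.05), where 2.20% of all genes did, and the difference of Mrpl14 there was 0.16 (adjusted p = 0.203).

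In metformin-treated mice, which the untreated comparison did not use, 3 members passed, where 12.1% of all genes tested did. Mrpl14 was again higher on 44% fat, by 0.15 ± 0.025 (adjusted p = 2.53e-07, 19 of 20 strains), Mrpl3 was higher by 0.068 ± 0.015 (adjusted p = 0.000494, 15 of 20 strains), and Mrpl39 was lower (-0.062 ± 0.021, adjusted p = 0.0341, 13 of 20 strains). Within the lower identifier range alone Mrpl39 had an adjusted p of 0.729. Mrps9 was at 0.028 ± 0.018 (adjusted p = 0.347). The median over the members was -0.0069, against -0.0079 over all genes. Mrpl14 and Mrpl3 were called in both sets of animals with the same direction, and the set here was 234 libraries against 469. Of other mitochondrial genes in untreated mice, 11 of 13 protein-coding genes of mitochondrial DNA were higher on 44% fat, with a median of 0.11, as were 18 of 37 complex I genes (Ndufv1 by 0.088 ± 0.012) and 4 of 11 translation factors. Of 7 genes that transcribe or copy mitochondrial DNA 3 were higher, among them Tfam (0.067 ± 0.011) and Polrmt (0.080 ± 0.014), the factor and the polymerase that transcribe it, and 3 of the 7 had a difference below 0. Genes for aminoacyl-tRNA synthesis went both ways, 5 of 20 higher and 3 lower, as did those for assembly and rRNA modification, 2 of 21 higher and 2 lower, and of 10 regulators 3 were higher. Of 84 cytosolic ribosomal protein genes 0 were higher and 3 lower. Slow fibre markers were higher in 4 of 8, their summed level having a median of 1740 CPM (491 to 4261) on 44% fat and 1727 CPM (570 to 3632) on 10% fat, and adipocyte markers were higher in 5 of 7 and lower in 2. Endothelial markers were higher in 2 of 4 (median of the list 0.068), and of 8 fast fibre markers 1 was higher and 1 lower. The part of these shifts in the members' difference was not tested.

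Metformin treatment, which goes with the older cohort, went with lower levels. Of the 77 members 24 passed (31.2%), all of them lower in treated mice, where 19.4% of all genes tested passed, 8.34% higher and 11.0% lower. The median difference was -0.029 log2 units, against -0.0022 over all genes. The largest was that of Mrpl4, which lines the peptide tunnel: untreated mice ranged from 13.0 to 34.7 CPM (median 18.7, n = 469) and treated mice from 9.66 to 27.8 CPM (median 17.3, n = 234). The ranges overlapped almost wholly, and the log2 difference was -0.075 ± 0.016 (adjusted p = 0.000130), negative in 20 of 20 strains. Mrps28 (-0.065 ± 0.020, adjusted p = 0.0122), Mrps6 (-0.065 ± 0.021, adjusted p = 0.0175), Mrpl20 (-0.061 ± 0.017, adjusted p = 0.00342) and Mrpl34 (-0.058 ± 0.019, adjusted p = 0.0162) followed. The smallest p was that of Mrpl3 (-0.058 ± 0.010, adjusted p = 1.11e-06), which ranged from 21.0 to 53.8 CPM (median 31.7) in untreated and from 19.3 to 48.2 CPM (median 30.2) in treated mice and was lower in 19 strains. Mrpl12 fell by 0.048 ± 0.017 (adjusted p = 0.0273). The median over members was negative in 15 of 20 strains, from -0.12 in (CC042/GeniUncJ x CC040/TauUncJ)F1 to 0.016 in (CC012/GeniUncJ x CC002/UncJ)F1. The identifier range goes partly with treatment, as 90 of the 159 upper-range libraries were treated. Without it in the model 39 members were called (50.6%), where 26.8% of all genes were, and in the lower range alone 23 (29.9%), where 21.8% were. In the upper range alone 0 were called (edgeR; 2 at an unadjusted p under 0.05), but there only 1 of 17683 genes was, so this 0 is not particular to the members. Mrpl3 and Mrpl12 were at 0.0018 and 0.016 in that range. Without the 104 libraries with liver transcripts 17 members were called (22.1%, against 15.6% of all genes), and without the 19 whose labels were in doubt 19 (24.7%, against 18.4%).

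**Figure D4:**
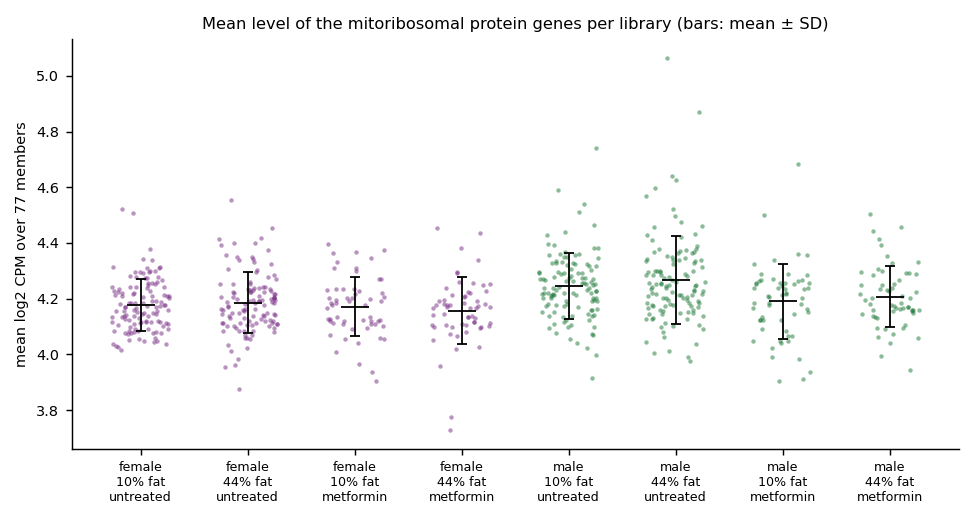
Mean log2 CPM over the 77 genes in each of 703 libraries, by sex, diet and treatment, with the mean and SD of each group. Group means lie between 4.16 and 4.27, highest in untreated males, the SD between libraries of a group is 0.0931 to 0.159, and the groups overlap.

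Of related genes, 17 of 37 nuclear complex I genes were lower in treated mice, as were 4 of 11 translation factors (Gfm1, an elongation factor, by -0.044 ± 0.0089) 3 of 13 protein-coding genes of mitochondrial DNA, 4 of 21 genes for assembly and rRNA modification, 3 of 20 for aminoacyl-tRNA synthesis and 1 of 7 that transcribe or copy mitochondrial DNA, whereas 0 of 84 cytosolic ribosomal protein genes passed (edgeR; 8 at an unadjusted p under 0.05). Mitoribosomal proteins with other names were counted apart from the 77. Dap3 and Ptcd3, of the small subunit, were lower in treated mice (-0.045 ± 0.010, adjusted p = 0.000377, and -0.036 ± 0.0097, adjusted p = 0.00324). Chchd1 and Aurkaip1, also of the small subunit, were higher in males (0.097 ± 0.017, adjusted p = 1.26e-07, and 0.095 ± 0.017, adjusted p = 2.41e-07), and Dap3 was lower on 44% fat (-0.029 ± 0.011, adjusted p = 0.0437). Gadd45gip1, of the large subunit, was at -0.028 ± 0.019 with metformin. Of 10 regulators of mitochondrial genes 1 was higher and 2 were lower in treated mice. Esrra, 1 of the 10 and named after the values were seen, encodes a nuclear receptor that drives genes of mitochondrial respiration. It was higher in males (0.22 ± 0.021, adjusted p = 3.21e-22) and on 44% fat (0.079 ± 0.021, adjusted p = 0.00201) and lower in treated mice (-0.075 ± 0.019, adjusted p = 0.00175). The part of Esrra in the members' levels was not tested. Among markers of other cells, 3 of 7 adipocyte markers were lower in treated mice, their summed level having a median of 180 CPM (89.9 to 1698) against 199 CPM (73.0 to 1198), whereas 1 of 8 slow fibre markers was higher, and of 8 fast fibre markers 1 was higher and 1 lower. Of 4 endothelial markers 1 was higher and 1 lower, and 1 of 3 neural markers was lower. The part of these in the members' difference was not tested.

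Whether one factor's difference depended on another was tested by interaction terms. No member was called for diet by strain, diet by sex, metformin by diet, metformin by sex or metformin by strain (edgeR quasi-likelihood test, 0 of 77 in each; 0 also by limma voom), where 4.13%, 0.568%, 0.0902%, 3.12% and 11.6% of all genes tested were. At an unadjusted p under 0.05 there were 2, 8, 7, 26 and 4 members (2.60%, 10.4%, 9.09%, 33.8% and 5.19%), against 16.1%, 9.34%, 9.07%, 20.0% and 26.0% of all genes. The metformin by sex term had a median of -0.039 over the members and was negative in 75 of 77; the smallest adjusted p was 0.0522, for Mrpl57 (-0.11 ± 0.034). The family level differed between treated and untreated females by -0.018 (4.16 ± 0.114, n = 116, against 4.18 ± 0.101, n = 236) and between treated and untreated males by -0.057 (4.20 ± 0.122, n = 118, against 4.26 ± 0.141, n = 233). Within the lower range alone, Mrps2 passed for metformin by sex (-0.11 ± 0.031, adjusted p = 0.0444) and Mrpl39 for metformin by strain (adjusted p = 0.0341).

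Beyond the factors of the design, the members rose and fell together from mouse to mouse. Once strain, sex, diet and identifier range had been removed by a linear fit, the correlation of log2 CPM over 469 untreated libraries had a median of 0.439 over the 2926 pairs of members, with an interquartile range of 0.354 to 0.519, and was positive in 100% of pairs. Within other gene lists it was 0.743 for nuclear complex I genes, 0.622 for the protein-coding genes of mitochondrial DNA and 0.585 for cytosolic ribosomal proteins, all above that of the members, and 0.162 for translation factors and 0.138 for assembly and rRNA modification. The median was 0.0064 for pairs of 7972 other genes of like level and 0.030 for a member and another gene. The median was 0.422 for pairs of Mrps genes, 0.444 for pairs of Mrpl genes and 0.438 for pairs of one with the other. The highest pairs were Mrpl54 with Mrps28 (0.791) and Mrpl30 with Mrps21 (0.785). Mrpl12 and Mrps7 followed the family most closely, each with a median of 0.581 with the other members, and Mrpl23 least, with 0.212. In the 234 treated libraries the median over pairs was 0.436. Without the 5% of libraries whose family level lay farthest from the median, an alternative chosen after seeing the data, it was 0.318 over 445 libraries. All pairs share libraries, scaling and depth, so these values are descriptions with no test.

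**Figure D5:**
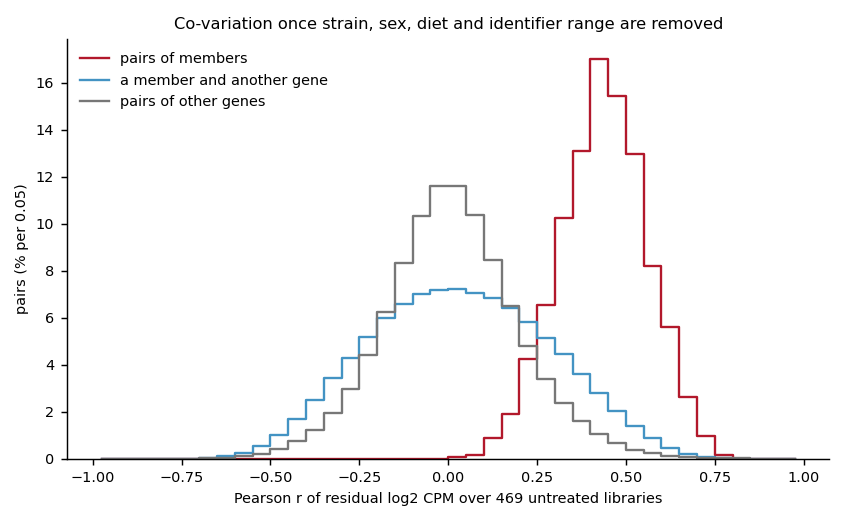
Distribution of the Pearson correlation of residual log2 CPM over 469 untreated libraries, as the percentage of pairs per bin of 0.05, for pairs of members (red), a member and another gene of like level (blue) and pairs of other genes of like level (grey). Pairs of members centre at 0.439 and the others at 0.030 and 0.0064.

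The members' residual levels followed those of nuclear complex I genes (median r of a member with a complex I gene 0.547), of the mitoribosomal proteins with other names (0.449) and of cytosolic ribosomal proteins (0.383). They did not follow the protein-coding genes of mitochondrial DNA, whose median correlation with the members was 0.00026. Regulators such as Ppargc1a, Nrf1, Gabpa and Esrra had a median of -0.057. The residual family level also correlated with the log2 total count at 0.257, with the fast fibre markers at 0.340, with macrophage markers at -0.338 and with endothelial markers at -0.482, and the part of depth and of these markers in the co-variation was not tested.

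Promoters were searched for motifs of 3 factors known to act on nuclear genes for mitochondria: NRF1 (CGCATGCG), the ETS family, to which GABPA belongs (CCGGAAG), and YY1 (ATGGCGG), on both strands, from 250 bases before to 50 bases after the RefSeq start. Sequences were found for 68 of 77 members (RefSeq, GRCm38.p6). The NRF1 letters were present in 10.3% of member promoters, 3.60% of those of other genes tested and 1.91% of all promoters in the table. The shares were 35.3%, 16.4% and 9.12% for ETS and 19.1%, 7.56% and 4.19% for YY1, and at least 1 motif was present in 51.5%, 24.9% and 13.9%. The median GC content was 58.2% in members and 60.7% in other genes tested. The YY1 letters overlap a start codon where ATG begins the protein, and a match is a description of the letters, not of binding. The RefSeq start can differ from the start of the gene in the deposited positions. For Mrpl23 most of the searched window lies inside the gene position given above, and bases farther upstream were not searched. The following promoters are shown, with matches in capitals: Mrpl32 for its pair of NRF1 matches, Mrpl22 for a match of each kind, Mrpl53, among the highest members per length, for a pair of ETS matches and a YY1 match, Mrps18b for NRF1 and ETS, and Mrpl23 and Mrpl14, the genes that led the strain and the diet comparisons, in which none of these letters occurs. They lie at chr13:14612988-14613287 (minus strand), chr11:58171414-58171713 (plus strand), chr6:83108858-83109157 (plus strand), chr17:35916391-35916690 (minus strand), chr7:142532782-142533081 (plus strand) and chr17:45686099-45686398 (plus strand), and each is written in the direction of its gene:
Mrpl32: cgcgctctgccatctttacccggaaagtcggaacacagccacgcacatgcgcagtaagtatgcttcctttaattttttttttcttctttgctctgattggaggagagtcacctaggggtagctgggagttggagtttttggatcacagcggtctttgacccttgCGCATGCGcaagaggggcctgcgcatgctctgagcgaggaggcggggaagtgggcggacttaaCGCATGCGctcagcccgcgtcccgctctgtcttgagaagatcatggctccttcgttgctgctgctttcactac
Mrpl22: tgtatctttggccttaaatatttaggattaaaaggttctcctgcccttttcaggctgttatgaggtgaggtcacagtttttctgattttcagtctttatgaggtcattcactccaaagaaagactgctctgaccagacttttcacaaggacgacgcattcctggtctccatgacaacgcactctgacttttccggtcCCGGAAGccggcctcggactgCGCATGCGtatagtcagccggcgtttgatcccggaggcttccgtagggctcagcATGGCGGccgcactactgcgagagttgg
Mrpl53: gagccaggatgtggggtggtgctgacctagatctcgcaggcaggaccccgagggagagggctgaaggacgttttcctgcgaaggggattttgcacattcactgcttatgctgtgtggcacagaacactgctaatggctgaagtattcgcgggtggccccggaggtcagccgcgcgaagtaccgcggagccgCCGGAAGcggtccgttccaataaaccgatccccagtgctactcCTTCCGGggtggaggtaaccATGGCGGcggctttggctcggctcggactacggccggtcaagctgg
Mrps18b: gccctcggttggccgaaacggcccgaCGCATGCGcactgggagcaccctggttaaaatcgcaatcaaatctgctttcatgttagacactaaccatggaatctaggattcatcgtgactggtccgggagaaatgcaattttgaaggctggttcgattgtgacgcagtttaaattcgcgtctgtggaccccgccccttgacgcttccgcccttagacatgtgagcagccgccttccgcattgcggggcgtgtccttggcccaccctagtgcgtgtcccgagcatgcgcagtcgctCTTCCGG
Mrpl23: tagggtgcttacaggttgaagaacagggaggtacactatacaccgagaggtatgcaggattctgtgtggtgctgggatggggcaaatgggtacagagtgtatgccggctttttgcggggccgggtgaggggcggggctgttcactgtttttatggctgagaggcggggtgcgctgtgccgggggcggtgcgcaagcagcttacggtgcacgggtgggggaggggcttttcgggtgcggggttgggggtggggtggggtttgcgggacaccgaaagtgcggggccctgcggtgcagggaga
Mrpl14: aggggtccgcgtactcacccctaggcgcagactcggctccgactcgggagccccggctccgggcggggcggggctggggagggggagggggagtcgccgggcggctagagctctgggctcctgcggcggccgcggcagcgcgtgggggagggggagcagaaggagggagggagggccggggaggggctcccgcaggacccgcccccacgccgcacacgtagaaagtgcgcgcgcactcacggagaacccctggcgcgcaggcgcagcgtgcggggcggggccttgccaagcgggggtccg

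Many members share a start region with a neighbour. A gene on the other strand began within 1000 bases of the start of 33 of 77 members (42.9%), against 14.6% of other protein-coding genes tested. Of these neighbours 29 had levels high enough for a residual correlation, whose median was 0.253. It was 0.678 for Mrpl54 and Apba3, whose starts lie 26 bases apart, 0.557 for Mrpl37 and Cyb5rl, 0.544 for Mrpl36 and the complex I gene Ndufs6, and 0.467 for Mrpl46 and Mrps11, both of the mitoribosome. Mrps12 and Sars2, the mitochondrial seryl-tRNA synthetase, had 0.327. Mrps7 and Gga3 had -0.222, so a shared start region did not go with co-variation in each pair. Where partners overlap on opposite strands, the sources used here do not state whether strand was used in counting, and reads of such partners may not be separated. Mrpl14, which led the sex and diet comparisons, is such a member. It shares 6.24% of its 50-base stretches with Tmem63b on the opposite strand.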

How the data were processed

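RNA from gastrocnemius muscle of 703 mice was made into polyadenylated RNA libraries with the KAPA mRNA HyperPrep kit and read on an Illumina NovaSeq with paired ends of 100 bases. The authors aligned both mates as single reads to a transcriptome of 8 founder strains and divided reads among alleles and genes with EMASE within GBRS (versions not given in the sources used here; GRCm38 and DESeq2 per the submitters' processing notes). The deposited table of estimated counts holds whole numbers, with genes of under 1 read in 50% or more of the samples removed by the authors. A second deposited table holds these counts after DESeq2's variance-stabilising transformation, close to a log2 scale, and served as an alternative. The deposited gene positions are in megabases.

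Groups (sex, diet, treatment) and strains were taken from the labels, and 0 sample columns were left out. Counts were scaled by TMM, filtered with filterByExpr over 8 groups and tested with edgeR 4.0.16 (quasi-likelihood F test, legacy = FALSE) in R 4.3.3, with Benjamini-Hochberg adjustment over all genes tested and a threshold of 0.05. Terms were strain, sex, diet and identifier range, in 469 untreated libraries, plus treatment in all 703. CPM are counts scaled to a common library total after TMM, and log2 CPM used a prior count of 2. The share of variance is omega squared on log2 CPM. Alternatives were RLE scaling, no filter, limma voom and limma 3.58.1 on the transformed values, DESeq2 1.42.0, each identifier range alone, no range term, and leaving out doubtful libraries. Libraries closest to another strain were found with genes of mean CPM of at least 5.

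On simulated counts for the diet comparison, with 16310 genes fitted, edgeR recovered 51.5% of genes changed by 0.1 log2 units, 86.6% at 0.3 and 97.0% at 0.6. Totals were 27.4M to 96.1M counts per library, and each library is 1 mouse.

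The members and gene lists were chosen with earlier results of these data known. Genes named are the 6 with the largest share between strains and the 3 with the smallest, the 6 with the largest difference in each direction among those past the threshold for sex, diet and metformin, the 3 highest and 3 lowest per kilobase, and Mrpl11, Mrpl12, Mrps12, Mrps18a, Mrps18b, Mrps18c, Mrps36 and the mitoribosomal proteins with other names whatever their values. Others are named as examples chosen after their values were seen. One gene with strain means like those of a member is not reported here. The pattern first set for cytosolic ribosomal proteins also matched other genes, such as that of an RNase P subunit, and these were removed, leaving 84. Sequences are from RefSeq (GRCm38.p6) and GENCODE M21. Exon lengths and overlaps are from GENCODE M21, in which 59 of 77 members have the same position as in the deposited table.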

Additional observations from a re-analysis of the deposited data

How the results depend on the processing

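Of the results that answer a comparison, 103 alternative values kept their direction and their side of the threshold or stayed within 1.5 times the main count, 9 moved and 1 reversed. For the named genes, 530 were unchanged in direction and call, 34 lost the call, 1 gained it, 1 moved and 2 reversed. Over all alternatives other than the upper identifier range alone and the model without the range, counts of members called were 75 to 77 for strain, 8 to 11 for diet, 60 to 61 for sex, 17 to 25 for metformin and 2 to 4 for diet in treated mice. The counts for sex include 1 member lower in males by limma voom, by limma on the transformed values and without the libraries in doubt. In the upper range alone, which has fewer libraries (69 untreated and 90 treated), 37 members were called for strain, 0 for diet, 16 for sex and 0 for metformin, where 55.1%, 2.20%, 26.1% and 0.00566% of all genes were, and the metformin differences of Mrpl12 (0.016) and Mrpl3 (0.0018) reversed. Without the range as a term 39 members were called for metformin. In the lower range alone 1 member was called for metformin by sex and 1 for metformin by strain, the median diet difference in treated mice reversed to 0.015, and 8 members were separated by a parental line, against 9 in treated mice and 5 as reported. The cause was not tested. With the counts of Mrpl23-ps1 added, an alternative chosen after seeing the data, the share of variance between strains of Mrpl23 was 4.34%. No paired analysis was possible because the labels give every library the same replicate number. All members passed the filter. In the simulated diet comparison 51.5% of changes of 0.1 log2 units were recovered. The changed genes were drawn at random from genes of all levels, so this share is not that of the members. Small differences of members can still be missed. Untreated mice of both ages, and the division of reads between near-identical copies, limit what the metformin and the Mrpl23 comparisons can show.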

Other observations

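Genes whose strain means were most like those of the leading members were looked up after the values were seen, over 20 strains, as descriptions with no test. For Mrpl23 the closest was Dnajc19-ps, a pseudogene also on chromosome 7 (r = 0.997), followed apart from Mrpl23-ps1 by Lancl1 (0.943) and Gm2546 (0.939), and of 26 genes within 1 Mb of Mrpl23, 0 had a correlation beyond 0.8 in size. For Mrpl15 the closest was Gm37144 (r = 0.842), a gene model centred within Mrpl15 with a mean of 0.217 CPM, followed by Mrps28 (0.832), a small subunit gene on another chromosome. For Mrpl3 they were Gm37553 (-0.887), Gm10709 (0.887) and Wif1 (-0.877), and Atp2c1, 399 kb away, had 0.870. Of 7 genes within 1 Mb of Mrpl15, 1 had a correlation beyond 0.8 in size.

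The highest family levels were 5.06 and 4.87 log2 CPM, in untreated males on 44% fat of (CC001/UncJ x CC042/GeniUncJ)F1 and (CC002/UncJ x CC075/UncJ)F1. The mean of their group was 4.27 ± 0.159 (SD, n = 118).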
